A study of Mus musculus with 12 samples.

Results

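Bone morphogenetic protein (BMP) signalling was examined through 10 genes on expression arrays of mouse embryonic stem (ES) cells. They were the ligands Bmp2, Bmp4, Bmp5, Bmp6 and Bmp7 and the target genes Id1, Id2, Id3, Smad6 and Smad7. Every probe set whose platform annotation carried only the symbol of a member was taken, which gave 17 probe sets of the 45101 on the array and 10 of 18193 annotated genes. Of the 17, 15 passed the filter on dim signals, and each of the 10 genes had at least a single probe set that did. The 4 genotypes were Ring1B/Eed double deficient cells, Eed deficient cells, Ring1B deficient cells and wild type cells, with 3 arrays each from biological replicates. Per the labels all mutant lines were made by gene targeting, the double deficient line by targeting Ring1B in cells that already lacked Eed, and no other line of any genotype is described. Each comparison therefore also holds any difference between lines. The p values rest on the spread between arrays within genotypes, pooled over the 12 arrays, and do not measure a spread between lines. The culture medium, which can itself bring BMP, is not given in the sources used here.

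BMP ligands are secreted proteins that bind paired type I and type II receptor kinases. The receptors phosphorylate Smad1, Smad5 and Smad9, which enter the nucleus with Smad4 and switch on target genes. Id genes encode helix-loop-helix proteins without a DNA-binding region that sequester E proteins, and Smad6 and Smad7 are inhibitory Smads that feed back on the receptors. In mouse ES cells, BMP4 together with LIF is known to sustain self-renewal partly through Id genes, and in the early embryo Bmp2 is made by visceral endoderm and Bmp4 by extraembryonic ectoderm. Ring1B, encoded by Rnf2, is the main ubiquitin ligase subunit of Polycomb repressive complex 1, and Eed is a core subunit of complex 2. The question put to the data was how the ligands differ between the genotypes and whether the targets go with Bmp2 and Bmp4.

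Signals are MAS5 values on a linear scale. Array medians ran from 19.07 to 28.01, and the 40th percentile used as the limit for dim signals ran from 12.1 to 19.07. The brighter Eed probe set averaged 71.2 ± 21.0 in double deficient, 37.8 ± 13.1 in Eed deficient, 1642 ± 283 in Ring1B deficient and 1428 ± 159 in wild type cells (SD, n = 3), and the brightest Rnf2 probe set averaged 383 ± 18.8, 779 ± 168, 468 ± 65.7 and 851 ± 124 in the same order. A dim Rnf2 probe set ran otherwise, at 38.5 ± 3.80, 22.3 ± 3.23, 60.2 ± 8.27 and 29.9 ± 7.02, and whether any of these probes lie in the deleted parts is not known here. All 12 ES cell markers, among them Pou5f1, Nanog and Sox2, lay above the dim limit in every genotype, and 8 were called lower in double deficient, 1 in Eed deficient and 0 in Ring1B deficient cells. Arrays with the same number deviated together in all genotypes for numbers 1 and 2. Their deviations from the genotype means correlated at 0.16 to 0.43 for number 1 and 0.27 to 0.61 for number 2. For number 3 the range was -0.05 to 0.18. These are figures over genes, which do not vary independently. Summed signals of other cell types also differed. Markers of extraembryonic endoderm (17 of 18 on the array) summed to 10130 to 11968 in double deficient, 6437 to 10604 in Eed deficient, 5060 to 7206 in Ring1B deficient and 1388 to 1829 in wild type arrays, where Afp, Foxa2, Sox7 and Ttr were dim on all 3. Markers of fibroblasts and feeder cells (20 of 20) summed to 11054 to 12054, 5362 to 11163, 2904 to 4024 and 4422 to 4813 in that order, with Lum dim in wild type and Lum and Prrx1 dim in Ring1B deficient cells, and Eed deficient replicate 3 alone held the 11163. Markers of trophoblast (11 of 11) summed to 4846 to 7776, 3724 to 6087, 1563 to 3074 and 732 to 1391, with Elf5 dim in every genotype and Gata3 dim in Ring1B deficient and wild type cells. Called higher in double, Eed and Ring1B deficient cells were 15, 15 and 14 of 17 tested endoderm markers, 16, 6 and 1 of 20 fibroblast markers and 7, 7 and 5 of 9 tested trophoblast markers. Over all tested genes the shares called higher were 19.5%, 10.8% and 4.68% in that order. Afp, Foxa2, Sox7 and Ttr, and Lum of the fibroblast list, were dim on all wild type arrays and entered the tests through the mutants. These marker counts are descriptions only. In bulk RNA, more cells that express a gene and more RNA per cell cannot be told apart, and the part of these cell types in the results below was not tested.

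**Figure D1:**
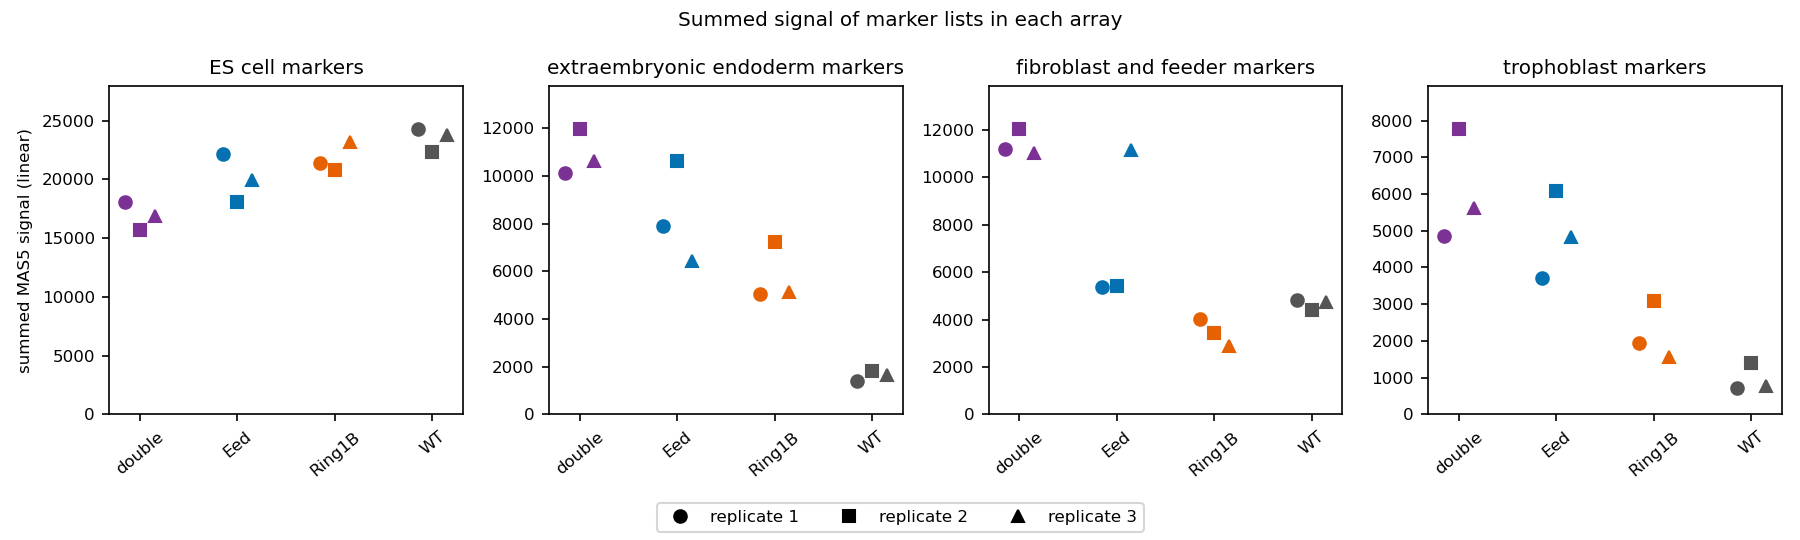
Summed MAS5 signal (y axis, linear) of each marker list in each array, by genotype (x axis), with a symbol for each replicate number. Endoderm and trophoblast markers are higher in all mutant arrays than in wild type arrays, and Eed deficient replicate 3 has a fibroblast sum of 11163, close to the double deficient arrays.

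Of the 10 genes, 7 were called higher in double deficient cells, 5 in Eed deficient cells and 4 in Ring1B deficient cells, all against wild type, and 0 were called lower. Calls rest on a limma model over all 13985 tested genes with a limit of 0.05 on the adjusted p. Of all tested genes, 30.8% were called in double deficient cells (19.5% higher, 11.4% lower), 15.3% in Eed deficient cells (10.8% and 4.55%) and 7.19% in Ring1B deficient cells (4.68% and 2.5%). The median log2 change over the 10 genes was 0.93 in double deficient, 0.70 in Eed deficient and 0.61 in Ring1B deficient cells, beside 0.10, 0.03 and -0.01 over all tested genes. All 3 arrays lay above all wild type arrays for 7 genes in double deficient, 7 in Eed deficient and 5 in Ring1B deficient cells, against 27.8%, 18.6% and 11.9% of all tested genes. These comparisons share the wild type arrays, and Bmp2 and Bmp5, dim on all of those, entered the tests through the mutants alone. The 3 calls in all mutants were Bmp2, Bmp4 and Bmp6, all ligands. With arrays centred on the median the count in double deficient cells was 4, and over all genes 1691 were then called higher and 3141 lower there, against 2723 and 1588 as deposited. The count in Eed deficient cells was 3 when either Eed deficient replicate 3 or wild type replicate 2 was dropped.

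**Figure D2:**
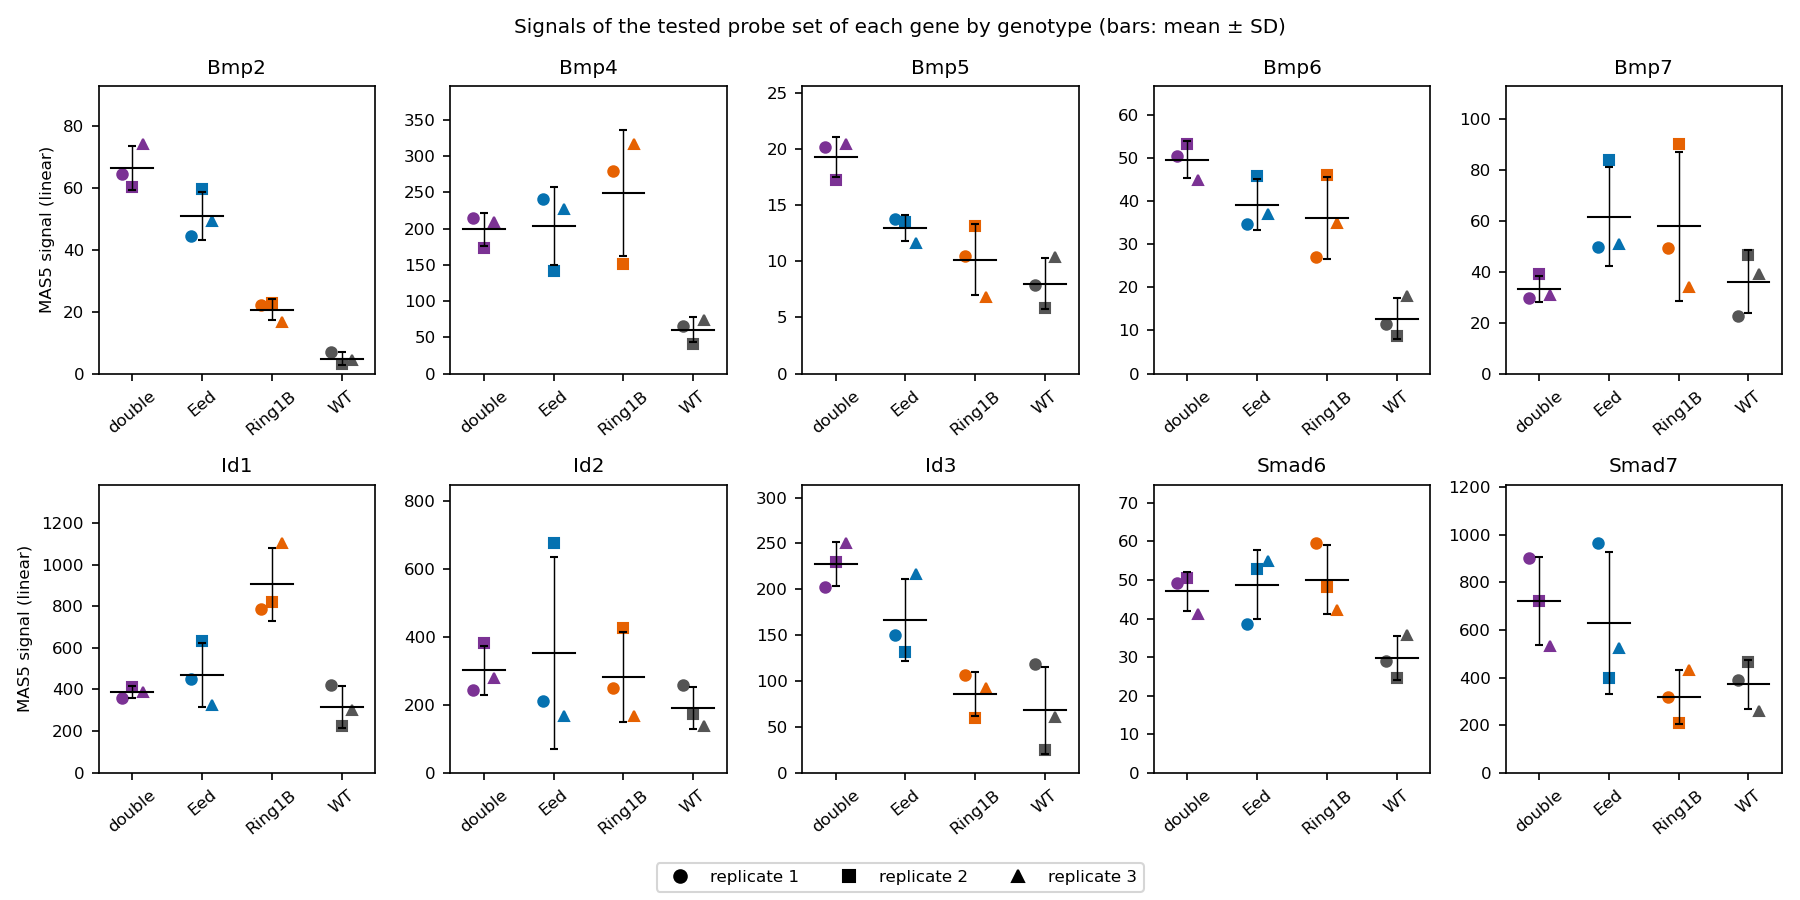
MAS5 signal (y axes, linear, a scale for each gene) of the tested probe set of each gene in the 12 arrays, by genotype (x axes), with the mean and SD as bars and a symbol for each replicate number. Bmp2, Bmp4 and Bmp6 are higher in all mutant arrays than in all wild type arrays, whereas Id1 stands highest in Ring1B deficient cells and Id3 in double deficient cells.

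Bmp2, the ligand of visceral endoderm, showed the largest change against wild type of the 10 genes in double and Eed deficient cells, and its means were graded over the genotypes. Its signals were 64.6, 60.4 and 74.5 in double deficient, 44.4, 59.7 and 49.3 in Eed deficient, 22.4, 23.0 and 16.7 in Ring1B deficient and 7.12, 3.02 and 4.35 in wild type arrays. The wild type signals were all under the dim limit, so the gene passed the filter through the mutants, and every mutant array lay above it. The log2 change against wild type was 2.88 in double deficient (SE 0.21, adjusted p = 5.2e-07), 2.53 in Eed deficient (SE 0.21, adjusted p = 4.3e-06) and 1.40 in Ring1B deficient cells (SE 0.21, adjusted p = 0.0010). All log2 changes are on log2(signal + 5) and, for a gene this dim in wild type, are smaller than the ratio of signals. Double deficient exceeded Ring1B deficient cells by 1.48 (adjusted p = 5.2e-04) and Eed deficient exceeded Ring1B deficient cells by 1.13 (adjusted p = 0.0096). Dropping Ring1B deficient replicate 3 ended the call between Eed and Ring1B deficient cells (adjusted p = 0.0531). Double and Eed deficient cells did not pass the test against each other, at 0.35 with a 95% interval from -0.09 to 0.80, although their arrays did not overlap.

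Bmp4, the ligand used to hold ES cells undifferentiated, was higher in all mutants by like amounts and had no such gradient. Its signals were 214, 173 and 209 in double deficient, 241, 141 and 228 in Eed deficient, 279, 152 and 317 in Ring1B deficient and 66.3, 41.4 and 73.8 in wild type arrays. No mutant array overlapped wild type, and within every genotype replicate 2 was the lowest. The log2 change was 1.67 in double deficient (SE 0.28, adjusted p = 6.4e-04), 1.67 in Eed deficient (SE 0.28, adjusted p = 0.0014) and 1.93 in Ring1B deficient cells (SE 0.28, adjusted p = 8.6e-04). Between the mutants no difference was called: double minus Eed deficient was 0.00 (95% interval -0.60 to 0.61), double minus Ring1B deficient -0.26 (-0.86 to 0.35) and Eed minus Ring1B deficient -0.26 (-0.86 to 0.35).

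Bmp6, a ligand of the Bmp5 to Bmp7 subfamily, was the third ligand higher in every mutant. Only 1 of its 3 wild type arrays was above the dim limit. It gave 50.4, 53.3 and 44.9 in double deficient, 34.6, 45.8 and 37.1 in Eed deficient, 27.0, 46.1 and 34.9 in Ring1B deficient and 11.5, 8.65 and 17.96 in wild type arrays. No mutant array overlapped wild type, while double and Eed deficient arrays overlapped each other, as did double and Ring1B deficient arrays. The log2 changes were 1.66 in double deficient (adjusted p = 1.4e-04), 1.35 in Eed deficient (adjusted p = 0.0015) and 1.22 in Ring1B deficient cells (adjusted p = 0.0055). In Ring1B deficient cells it fell short of the limit when replicate 2 of every genotype was left out, an alternative chosen after seeing the data (0.88, adjusted p = 0.073).

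Bmp5 and Bmp7 gave no such uniform rise. The tested Bmp5 probe set was dim, with 17.2 to 20.5 in double deficient, 11.6 to 13.7 in Eed deficient, 6.80 to 13.1 in Ring1B deficient and 5.82 to 10.3 in wild type arrays. It was called higher only in double deficient cells (log2 change 0.91, adjusted p = 0.012), the one genotype with all 3 arrays above the dim limit, and the call was lost under quantile normalization (0.62, adjusted p = 0.0698), median centring (0.66, adjusted p = 0.0529) and with replicate 2 of every genotype left out (adjusted p = 0.0684). The other Bmp5 probe sets did not pass the filter, and their signals stayed between 0.49 and 15.2. Bmp7, a relative of Bmp6, was not called in any comparison between genotypes by its tested probe set in the fit without a replicate block, whose ranges were 29.8 to 39.0 in double deficient, 49.7 to 84.1 in Eed deficient, 33.9 to 90.5 in Ring1B deficient and 22.5 to 46.6 in wild type arrays. In each genotype replicate 2 was the highest. The log2 changes against wild type were -0.06 in double deficient, 0.71 in Eed deficient and 0.56 in Ring1B deficient cells. A second, dimmer Bmp7 probe set differed from it in double deficient cells, with 40.7, 55.1 and 70.8 against 13.7, 49.99 and 20.9 in wild type, and was called higher there in the fit over all kept probe sets (0.99, adjusted p = 0.038), although the arrays overlapped. The third Bmp7 probe set, dim on all wild type arrays, was not called against wild type in that fit. It gave 0.58, 1.09 and 1.00 in double, Eed and Ring1B deficient cells (adjusted p = 0.32, 0.10 and 0.21). Its Eed and Ring1B deficient arrays lay above all wild type arrays.

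**Figure D3:**
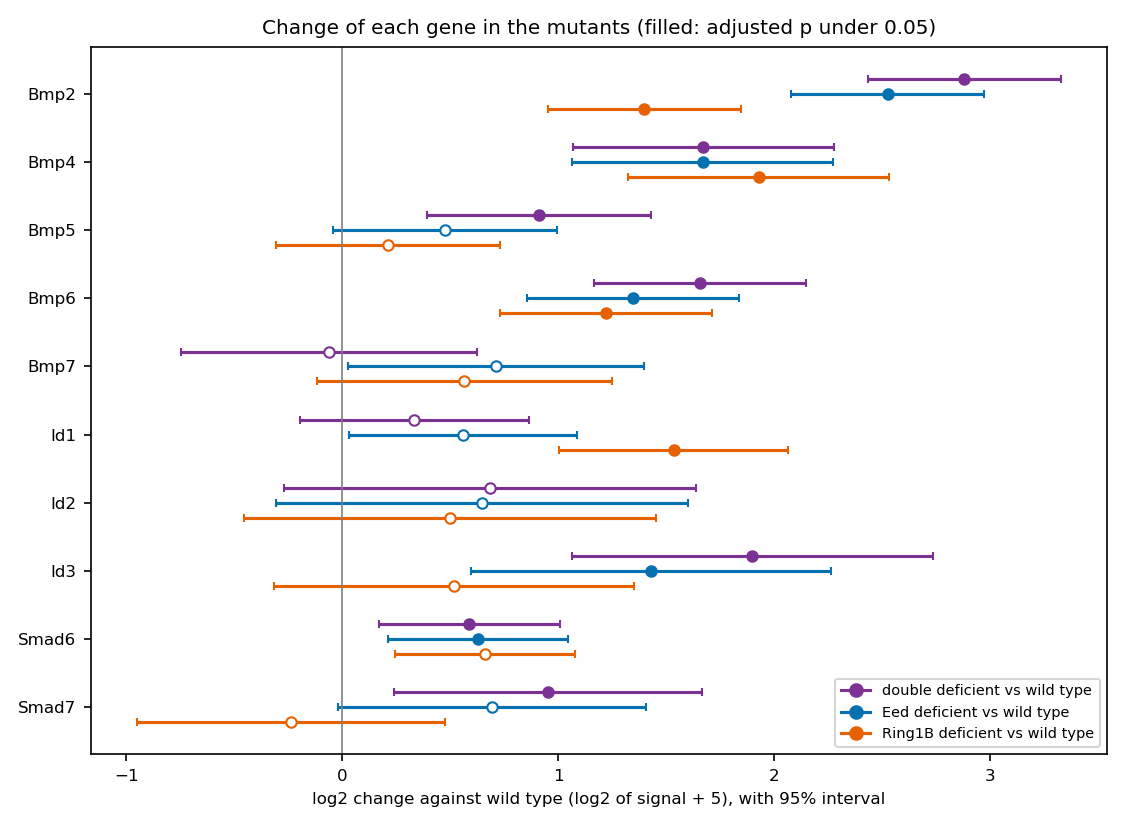
Log2 change of each gene against wild type (x axis, on log2 of signal + 5) with its 95% interval in double deficient, Eed deficient and Ring1B deficient cells; filled points passed an adjusted p of 0.05. Bmp2, Bmp4 and Bmp6 are filled in all 3 mutants, Id1 in Ring1B deficient cells alone, and Id3 in double and Eed deficient cells.

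The Id genes, the best known direct targets of BMP Smads, differed from each other. Id1 was highest in Ring1B deficient cells. Its signals were 359, 414 and 388 in double deficient, 452, 632 and 323 in Eed deficient, 787, 822 and 1107 in Ring1B deficient and 422, 223 and 303 in wild type arrays. The Ring1B deficient arrays lay above the other 9, whereas double and Eed deficient arrays overlapped wild type. The log2 change against wild type was 1.53 in Ring1B deficient cells (SE 0.25, adjusted p = 0.0018). It was 0.33 in double deficient (95% interval -0.20 to 0.86, adjusted p = 0.33) and 0.56 in Eed deficient cells (0.03 to 1.09, adjusted p = 0.15). Double deficient cells lay below Ring1B deficient cells by a log2 difference of -1.20 (adjusted p = 0.0052). Eed deficient cells lay below them by -0.98 (adjusted p = 0.041), a call that ended on dropping any of 9 arrays: the 3 Ring1B deficient and the 3 double deficient ones, Eed deficient replicates 1 and 3, and wild type replicate 3 (adjusted p 0.0545 to 0.177). It also ended under median centring (0.0521), with no filter (0.0563), with no intensity trend (0.0655) and with only the 2 genotypes fitted (0.0864).

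Id3 means had the opposite order among the mutants and were highest where Eed was missing. Its signals were 203, 230 and 251 in double deficient, 150, 132 and 217 in Eed deficient, 107, 59.9 and 92.2 in Ring1B deficient and 119, 24.5 and 61.0 in wild type arrays. Double and Eed deficient arrays lay above all wild type and Ring1B deficient arrays, and Ring1B deficient arrays overlapped wild type. The log2 change against wild type was 1.90 in double deficient (SE 0.39, adjusted p = 0.0024), 1.43 in Eed deficient (adjusted p = 0.024) and 0.52 in Ring1B deficient cells (95% interval -0.32 to 1.35, adjusted p = 0.51). In Eed deficient cells the call ended on dropping Eed deficient replicate 3 or either of wild type replicates 2 and 3 (adjusted p 0.0584 to 0.0999), and the change was 0.89 when wild type replicate 2 was the array dropped. The call in Eed deficient cells also ended with only the 2 genotypes fitted. Double deficient exceeded Ring1B deficient cells by 1.38 (adjusted p = 0.025), a call that ended on dropping any double deficient array or Ring1B deficient replicate 2 or 3 (adjusted p 0.0523 to 0.0896). That call also ended with arrays centred on the median. The fibroblast sum was also highest in the double deficient arrays and Eed deficient replicate 3, and the endoderm sum ran in the same order of genotypes as Id3.

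Id2, which shares the helix-loop-helix region with Id1 and Id3, was not called in any comparison. The brightest of its probe sets ran from 245 to 383 in double deficient, 168 to 678 in Eed deficient, 166 to 426 in Ring1B deficient and 137 to 257 in wild type arrays. Replicate 2 was the highest array in every mutant, and 678 belonged to Eed deficient replicate 2. The log2 changes were 0.68 (95% interval -0.27 to 1.64), 0.64 (-0.31 to 1.60) and 0.50 (-0.45 to 1.45) in double, Eed and Ring1B deficient cells. The second Id2 probe set put the genotypes in the same order of means, and the third lay between 4.67 and 21.2.

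Smad6, which blocks BMP receptors and Smad1, differed from wild type by small and even amounts. Its signals were 49.2, 50.6 and 41.2 in double deficient, 38.6, 52.8 and 55.0 in Eed deficient, 59.7, 48.2 and 42.1 in Ring1B deficient and 28.9, 24.6 and 35.8 in wild type arrays. All mutant arrays lay above all wild type arrays and overlapped each other. The log2 changes were 0.59 in double deficient (adjusted p = 0.035), 0.63 in Eed deficient (adjusted p = 0.044) and 0.66 in Ring1B deficient cells (adjusted p = 0.058, not called). In double deficient cells the call was lost in 9 of 23 alternatives. Among these were quantile normalization (0.36, adjusted p = 0.191), median centring (0.34, adjusted p = 0.223) and dropping replicate 1 or 2 of the double deficient or wild type arrays (0.0733 to 0.108). In Eed deficient cells the call was lost in 14 of 23 alternatives. Among these were both scalings (adjusted p = 0.0861 and 0.0946) and the fit over all kept probe sets (0.051). Dropping any of 8 arrays also ended it: the 3 double deficient ones, Eed deficient replicates 2 and 3, Ring1B deficient replicate 2, and wild type replicates 1 and 2 (0.0517 to 0.153). The change in Ring1B deficient cells was called when Eed deficient replicate 1 was dropped (adjusted p = 0.049), when probe sets of a gene were averaged in the fit (0.0443) and with a replicate block (0.0333).

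Smad7, the inhibitory Smad of both BMP and TGF-beta receptors, gave different answers by probe set. The brighter probe set, which carries the platform suffix for probes that may match other transcripts, gave 905, 722 and 534 in double deficient, 968, 397 and 523 in Eed deficient, 317, 207 and 433 in Ring1B deficient and 388, 464 and 261 in wild type arrays. All double deficient arrays lay above wild type, and the log2 change was 0.95 (adjusted p = 0.043). The dimmer probe set gave 249, 224 and 256 in double deficient, 433, 189 and 303 in Eed deficient, 359, 201 and 268 in Ring1B deficient and 241, 183 and 167 in wild type arrays. It overlapped wild type in every mutant, with log2 changes of 0.31, 0.57 and 0.45 in double, Eed and Ring1B deficient cells, of which 0 were called in the fit over all kept probe sets (adjusted p = 0.42, 0.20 and 0.43). The brighter probe set also exceeded Ring1B deficient cells in double deficient cells by 1.19 (adjusted p = 0.024), where the dimmer gave -0.14. Against wild type its call was lost in 10 of 23 alternatives. Among these were median centring (adjusted p = 0.121), no filter (0.0572) and the mean of both probe sets (0.63, adjusted p = 0.102). Dropping double deficient replicate 1 or 2, Eed deficient replicate 3, Ring1B deficient replicate 1, or wild type replicate 1 or 3 also ended it (0.0528 to 0.167). Against Ring1B deficient cells it was lost with the mean of both probe sets (0.53, adjusted p = 0.204), under median centring (0.0576), with replicate 2 of every genotype left out (0.0758) and on dropping replicate 1 or 2 of either genotype (0.0502 to 0.0922).

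**Figure D4:**
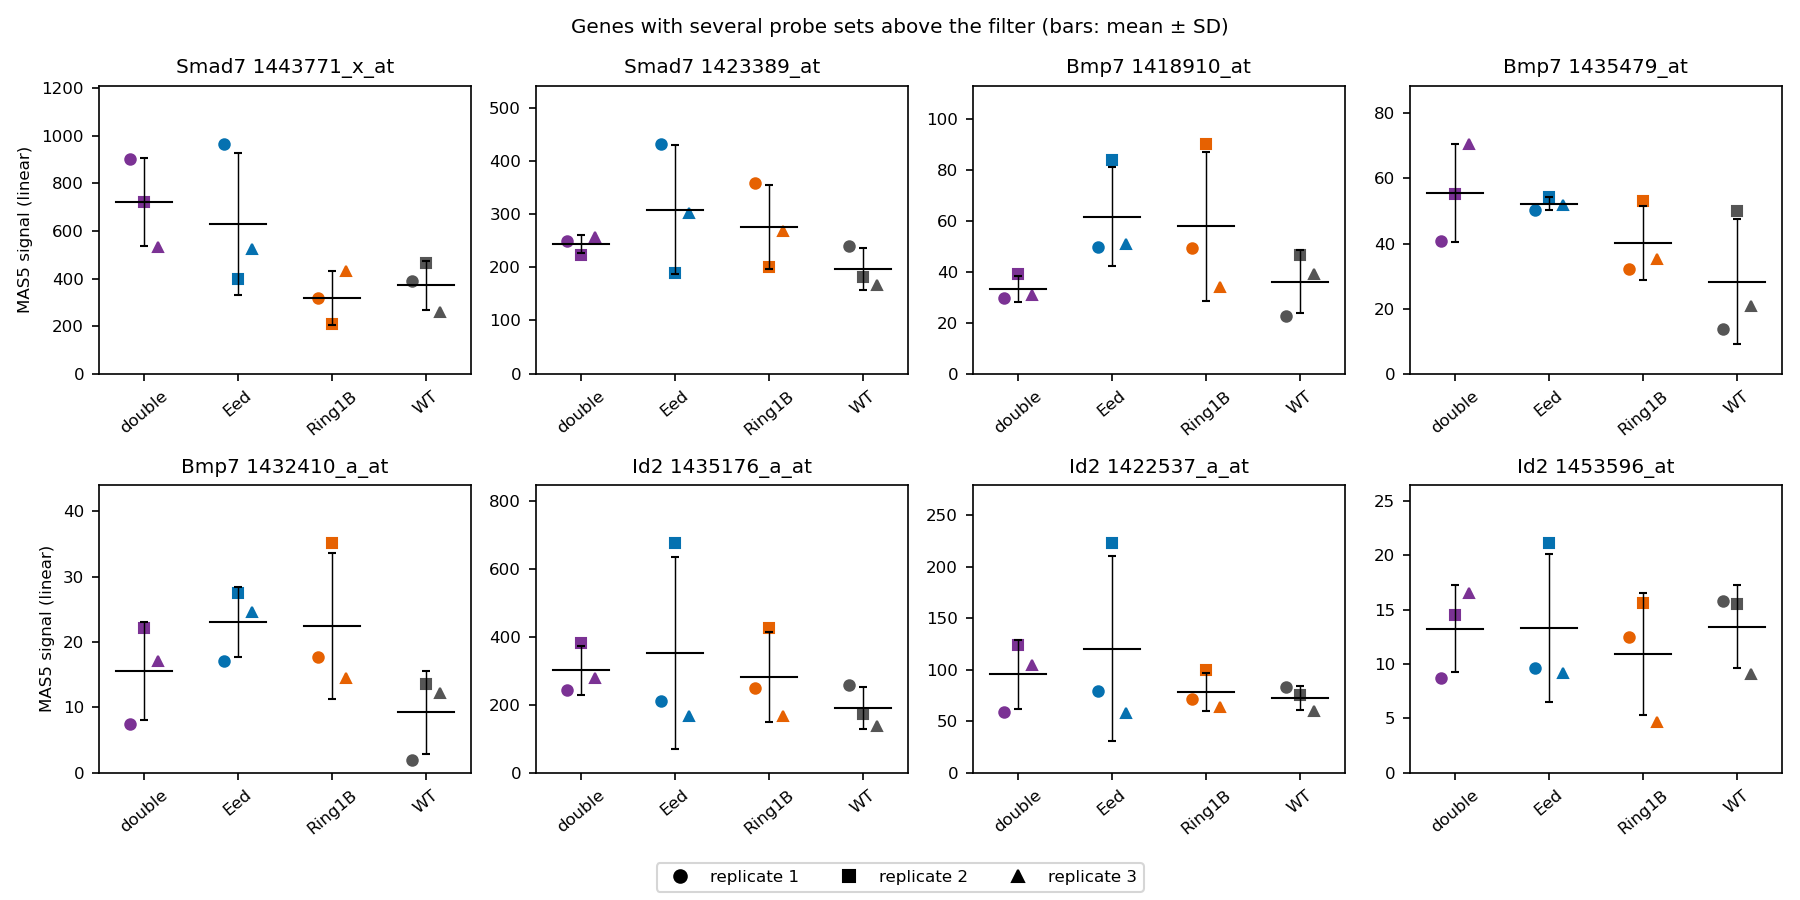
MAS5 signal (y axes, linear) in each array by genotype (x axes) for the kept probe sets of Smad7, Bmp7 and Id2, with mean and SD bars. The Smad7 probe sets part in double deficient cells, where the brighter reads 534 to 905 and the dimmer 224 to 256.

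Whether the targets go with Bmp2 and Bmp4 was read from the order of genotype means and from Pearson's r of log2 signals over the 12 arrays, given as a description without a test because the arrays fall into 4 genotypes. Bmp2, Bmp5, Bmp6 and Id3 ran in the order double, Eed, Ring1B deficient, wild type. Bmp4, Id1 and Smad6 ran in the order Ring1B, Eed, double deficient, wild type, and both orders are of means. No pair of mutants was called different for Bmp4, Bmp5, Bmp6 or Smad6, so the order among the mutants is not settled for them. Some pairs of mutants were called for Id3, only double against Ring1B deficient cells, and for Bmp2 and Id1, all pairs but double against Eed deficient cells. On dropping certain arrays the Id3 call ended, as did the Bmp2 and Id1 calls between Eed and Ring1B deficient cells. The Id3 call and that Id1 call also ended with arrays centred on the median. With Bmp2, r was 0.85 for Id3, 0.71 for Smad6, 0.55 for Smad7, 0.51 for Id2 and 0.16 for Id1. With Bmp4, r was 0.78 for Smad6, 0.64 for Id3, 0.60 for Id1, 0.31 for Smad7 and 0.10 for Id2. Other tested genes had a higher r than each target. With Bmp2, their share was 4.88% for Id3, 13.7% for Smad6, 24.3% for Smad7, 27.1% for Id2 and 47.4% for Id1. With Bmp4, it was 2.07% for Smad6, 6.88% for Id3, 9.21% for Id1, 28.6% for Smad7 and 45.7% for Id2. The r values also hold deviations shared by same-numbered arrays. Replicate 2 was the lowest array in 4 of 4 genotypes for Bmp4 and 3 of 4 for Id3, and the highest in 3 of 4 for Id2. In double deficient cells, where Bmp2 and Bmp4 were both called higher, Id1 was within its wild type range. In Ring1B deficient cells, where both were called higher too, Id3 overlapped wild type. Smad6 lay above wild type on all mutant arrays, as Bmp4 did, by smaller amounts that were called in double and Eed deficient cells.

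**Figure D5:**
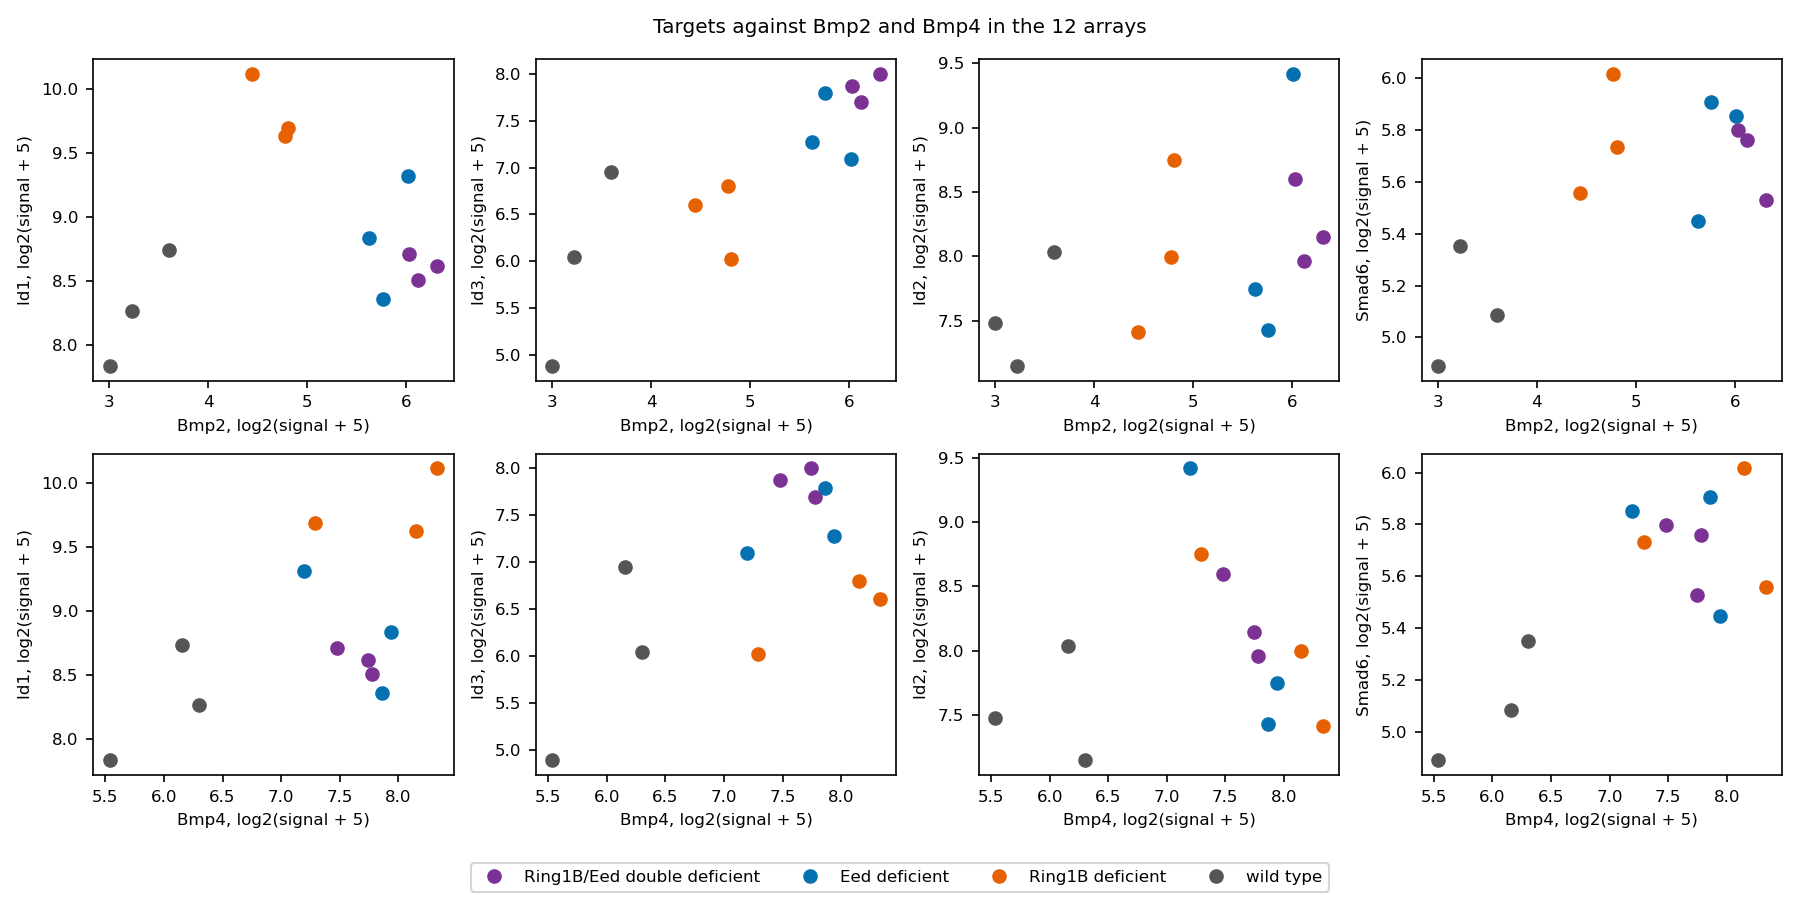
Log2(signal + 5) of Id1, Id3, Id2 and Smad6 (y axes) against that of Bmp2 (top) and Bmp4 (bottom, x axes) in the 12 arrays, coloured by genotype. Id3 lies along Bmp2 (r = 0.85), whereas Ring1B deficient arrays stand above the rest for Id1 at middle levels of Bmp2 (r = 0.16).

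The genes most like Bmp2 over the 12 arrays were Cobll1 (r = 0.99), Cyp26a1, which breaks down retinoic acid (0.99), Nrk (0.98), Pag1 (0.98) and Ugt2b34 (0.98). Cyp26a1 averaged 303 ± 14.3 in double deficient, 212 ± 11.7 in Eed deficient, 65.2 ± 12.04 in Ring1B deficient and 12.5 ± 1.66 in wild type cells, the order of means of Bmp2. The genes most like Bmp4 were Tmem64 (0.96), Dipk1b (0.95), Agpat2 (0.95), Snx24 (0.95) and Amn, a subunit of an uptake receptor of visceral endoderm (0.94). Snx24 averaged 203 ± 10.7, 169 ± 13.5, 177 ± 33.3 and 57.1 ± 13.2 in the same order of genotypes, higher in all mutants by like amounts.

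Whether loss of Ring1B did the same in cells with and without Eed was tested as an interaction, the difference of double from Eed deficient cells minus that of Ring1B deficient from wild type cells. Across all genes 1.9% were called, 0.708% with a positive and 1.19% with a negative interaction, and of the 10 genes Bmp4 and Id1 were called, both negative. Negative calls were not particular to these genes. Of 17 tested extraembryonic endoderm markers, 9 were called negative and 0 positive (median -1.47), given as a description. The part of endoderm cells in the Bmp4 and Id1 interactions was not tested. For Bmp4 the difference was 0.00 in Eed deficient cells and 1.93 in wild type cells, an interaction of -1.93 (SE 0.40, adjusted p = 0.024). For Id1 it was -0.22 in Eed deficient cells and 1.53 in wild type cells, an interaction of -1.76 (SE 0.35, adjusted p = 0.020). Bmp7 at -1.34 (adjusted p = 0.16) and Bmp2 at -1.04 (adjusted p = 0.091) came next in size and were not called. The Bmp4 call ended on dropping any double deficient array or replicate 1 or 3 of the Eed or Ring1B deficient arrays (adjusted p 0.0518 to 0.0699). The Id1 call ended on dropping double deficient replicate 1 or 3 or Ring1B deficient replicate 3 (0.0559 to 0.0659), and with replicate 2 of every genotype left out (-1.41, adjusted p = 0.0596). Of the 10 genes, 0 were called between double and Eed deficient cells, where limma called 1.89% of all genes (1.07% higher, 0.822% lower), and 1 of the 10, Bmp7, had an unadjusted p under 0.05 (0.0295). Against Ring1B deficient cells, Bmp2, Id3 and Smad7 were called higher and Id1 lower in double deficient cells, where 18.7% of all genes were called (12.7% higher, 5.98% lower). Bmp2 was called higher and Id1 lower in Eed deficient cells, where 4.48% were called (3.37% and 1.11%).

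The rest of the pathway was described by lists, to be read beside the 19.5%, 10.8% and 4.68% of all genes called higher in double, Eed and Ring1B deficient cells. Receptors and coreceptors (14 of 14 tested) had 3 called higher and 0 lower in double deficient, 2 and 1 in Eed deficient and 1 and 0 in Ring1B deficient cells, with medians of 0.21, 0.06 and -0.06. These counts are near the shares over all genes. Tgfbr3, the coreceptor betaglycan, was called in all of them, at 123 ± 21.1 in double deficient, 108 ± 48.3 in Eed deficient and 60.8 ± 28.6 in Ring1B deficient against 15.5 ± 2.88 in wild type cells (log2 changes 2.64, 2.39 and 1.60). Bmpr2, the type II receptor of BMPs, changed by 0.86 and Acvr1, a type I receptor, by 0.85 in double deficient cells. The Bmpr2 call was lost with the mean of its probe sets (0.21, adjusted p = 0.429). Acvr1 changed by 0.71 in Eed deficient cells, a call lost on dropping Eed deficient replicate 1 or 2 or wild type replicate 3 (0.0561 to 0.0839). Eng, the coreceptor endoglin, fell in Eed deficient cells (34.7 ± 2.0 against 64.2 ± 2.74, log2 change -0.80, adjusted p = 0.0023). Among 7 tested signal-carrying Smads and cofactors, Smad1, Smad4 and Smad5 were not called in any mutant, with log2 changes of 0.13, 0.11 and -0.25 in double deficient cells. The list had 1 higher and 1 lower in double deficient, 1 and 0 in Eed deficient and 0 and 0 in Ring1B deficient cells (medians 0.11, 0.08 and 0.03). Zfp423, a zinc finger partner of BMP Smads, fell by 1.96 in double deficient cells, a call lost on dropping double deficient replicate 3 or wild type replicate 1 (0.0606 and 0.0675). Hivep1, of a family that partners Smads in flies, changed by 0.89 in double deficient and 0.93 in Eed deficient cells, where the call was lost on dropping Eed deficient replicate 1 or 3 or wild type replicate 2 (0.0587 to 0.0854). Bmpr1a, a type I receptor of BMPs, chosen after its values were seen, gave 0.45 in double deficient cells (adjusted p = 0.059).

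Secreted antagonists and modulators, which bind BMPs or related ligands outside the cell, had 6 of 9 tested called higher and 0 lower in double deficient (median 1.24), 1 and 0 in Eed deficient (median 0.42) and 0 and 0 in Ring1B deficient cells (median -0.13). Another 6 on the array did not pass the filter, and Bmper and Nbl1, dim on all wild type arrays, passed it through the mutants and are 2 of the 6 calls, so these counts and medians are descriptions only. Fst, which encodes follistatin, averaged 273 ± 61.0 in double deficient against 47.7 ± 24.4 in wild type cells (log2 change 2.47, adjusted p = 2.3e-04), and Bmper averaged 57.2 ± 15.5 against 9.40 ± 2.20 (2.09, adjusted p = 9.2e-04). Nbl1 changed by 1.87 and Fstl3 by 1.48. The Fstl3 call was lost on dropping double deficient replicate 2 or 3 or wild type replicate 2 (0.0505 to 0.0563). In Eed deficient cells, where Fstl3 was the single call, dropping any of 9 arrays ended it: the 3 double and the 3 Eed deficient ones, Ring1B deficient replicate 1, and wild type replicates 1 and 2 (0.0584 to 0.166). Fibroblast marker sums were highest in the double deficient arrays and Eed deficient replicate 3, and the part of fibroblasts in these calls was not tested. The other BMP and GDF ligands (8 tested) had 2 higher and 1 lower in double deficient, 2 and 1 in Eed deficient and 0 and 1 in Ring1B deficient cells (medians 0.27, -0.41 and -0.15). Bmp8b, a ligand of germ cell formation, averaged 65.9 ± 17.6 in double deficient and 47.0 ± 7.95 in Eed deficient against 15.1 ± 6.30 in wild type cells. Bmp1, which despite its name is a protease that cleaves procollagen and the antagonist Chordin, averaged 91.6 ± 37.7 in double deficient and 54.7 ± 25.7 in Eed deficient against 7.98 ± 5.11 in wild type cells. Gdf3, a ligand of pluripotent cells, fell in all mutants, with 230 ± 56.7 in double deficient, 356 ± 69.4 in Eed deficient and 314 ± 48.4 in Ring1B deficient against 596 ± 98.8 in wild type cells. Dropping wild type replicate 1 ended its call in both single mutants, as did Eed deficient replicate 2 or 3 in Eed deficient cells (0.0844 to 0.102) and Ring1B deficient replicate 2 in Ring1B deficient cells (0.0668 and 0.068).

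Genes known as BMP targets in other cells had 6 of 9 tested higher in double deficient, 4 in Eed deficient and 3 in Ring1B deficient cells, and 0 lower (medians 1.13, 0.80 and 0.42). Msx1 and Msx2, homeobox genes, and Tbx20, a T-box gene of the heart, were called in all mutants. Msx1 averaged 70.4 ± 11.6 in double deficient, 48.7 ± 8.31 in Eed deficient, 42.9 ± 3.23 in Ring1B deficient and 17.3 ± 1.61 in wild type cells. Tbx20 averaged 124 ± 7.88, 71.3 ± 18.8, 32.8 ± 5.73 and 5.87 ± 2.99 in the same order. Like Bmp2, Tbx20 was called higher in Eed than in Ring1B deficient cells (1.00, adjusted p = 0.028), whereas Msx1 gave 0.16 there and was not called (adjusted p = 0.72). Of the 9 tested genes, Dlx3, Dlx5 and Tbx20 were dim on all wild type arrays and entered through the mutants, 2 of them among the 6 calls in double deficient cells. In Ring1B deficient cells the Msx2 call was lost on dropping any Ring1B deficient array or wild type replicate 2 or 3 (0.0578 to 0.114). Gata2 changed by 1.63 in double deficient and 0.97 in Eed deficient cells. Of the intracellular or membrane inhibitors (7 tested), Skil, a repressor of Smad activity, fell in double deficient (617 ± 51.5 against 1356 ± 273 in wild type cells, log2 change -1.11) and in Eed deficient cells (-0.85, a call lost on dropping Eed deficient replicate 2 or 3 or wild type replicate 1, 0.0537 to 0.0702). Tob2 was the 1 gene of that list called higher in double deficient cells (0.65), and dropping any double deficient array or wild type replicate 2 or 3 ended it (0.0542 to 0.144). Among the E proteins that Id proteins bind, Tcf12 was called higher in double deficient cells (0.56, adjusted p = 0.024) but not under median centring (0.242) or on dropping double deficient replicate 2 or wild type replicate 2 or 3 (0.0718 to 0.10), while Tcf3 gave -0.24 and Tcf4 -0.61 and were not called. Tcf4 was called lower there under median centring (-0.86, adjusted p = 0.0235), with only the 2 genotypes fitted (0.0264), with a replicate block (0.0049), with replicate 2 of every genotype left out (0.0145) and when Eed deficient replicate 2 was dropped (0.0461). Tcf3 was called lower with the mean of its probe sets (-0.68, adjusted p = 0.0114).

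For 6 of the 10 genes (Bmp4, Bmp5, Bmp6, Id2, Id3 and Smad6) RefSeq sequence of build GRCm38.p6 upstream of the gene start was at hand. The 250 bases before the start are shown for Bmp4 and Bmp6, the ligands called in every mutant, and for Id3, the target with the order of means of Bmp2. They lie at chr14:46390670-46390919 on the minus strand, chr13:38345466-38345715 on the plus strand and chr4:136143572-136143821 on the plus strand, 5′ to 3′ in the direction of the gene. Capitals mark matches on either strand to GTCTG, letters bound by Smads, to GGCGCC, a GC-rich motif of BMP-responsive elements, and to CACGTG, an E-box. No matches overlapped.
Bmp4: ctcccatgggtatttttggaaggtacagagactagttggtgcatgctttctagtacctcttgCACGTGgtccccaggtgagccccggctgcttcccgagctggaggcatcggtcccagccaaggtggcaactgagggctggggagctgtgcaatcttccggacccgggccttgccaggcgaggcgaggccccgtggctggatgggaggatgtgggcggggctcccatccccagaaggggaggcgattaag
Bmp6: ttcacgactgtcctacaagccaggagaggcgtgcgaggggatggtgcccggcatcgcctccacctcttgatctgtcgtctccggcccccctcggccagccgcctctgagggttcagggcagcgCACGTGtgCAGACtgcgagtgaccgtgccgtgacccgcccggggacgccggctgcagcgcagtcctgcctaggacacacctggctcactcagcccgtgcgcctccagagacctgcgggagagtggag
Id3: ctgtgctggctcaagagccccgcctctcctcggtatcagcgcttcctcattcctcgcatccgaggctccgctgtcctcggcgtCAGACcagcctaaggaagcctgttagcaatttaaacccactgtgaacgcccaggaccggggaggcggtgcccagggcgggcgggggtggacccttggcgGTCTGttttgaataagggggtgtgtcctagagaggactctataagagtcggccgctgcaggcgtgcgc

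The Id3 window held GTCTG at 2 places, the Bmp6 and Bmp5 windows at 1 each, and those of Bmp4, Id2 and Smad6 at 0. This motif is in 42.2% of the 32851 windows of the same length in the RefSeq table. CACGTG stood once in each of the Bmp4 and Bmp6 windows, against 6.02% of all windows, and GGCGCC only in that of Id2, against 9.59%. All windows but that of Bmp5 held more CpG than the median window: Bmp4 had 11, Bmp6 22, Id2 18, Id3 18 and Smad6 27 CpG dinucleotides, and Bmp5 had 4, against a median of 6 over all windows. A match describes the letters and not a site that is bound.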

How the data were processed

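RNA of 12 ES cell cultures was hybridised to Affymetrix mouse arrays. The authors deposited intensity values, and the submitters' processing notes name MAS5 without a version. Each array had a 2% trimmed mean of 100, and the ratio of the highest to the lowest array median was 1.47, under the limit of 2 set for further scaling. Gene symbols came from the platform annotation.

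Here 5 was added before log2. A probe set was kept where 3 or more arrays exceeded their own 40th percentile, and each gene was tested by its brightest probe set. Limma 3.58.1 in R 4.3.3 fitted 1 mean per genotype with an intensity trend, and p values were adjusted by Benjamini-Hochberg over 13985 genes. The procedure was tested on simulated data drawn independently for each gene and array. Such data lack the shared deviations of same-numbered arrays, so the check does not cover them. Means are given ± SD (n = 3), a precision set by the number of arrays. The members, lists and tests were chosen with earlier results of these data known. All members were named, with at most 4 called genes by size from each pathway list, all 3 E proteins and the 5 genes most like Bmp2 and Bmp4. Same-numbered arrays were not treated as pairs in the main fit, because it is not known whether the numbers pair the cultures. Their deviations correlated above 0.1 in 6 of 6 pairs for numbers 1 and 2 and in 1 of 6 for number 3. A replicate block was run as an alternative, and it changed many calls.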

Additional observations from a re-analysis of the deposited data

Results flagged for a closer look

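The change on Ring1B loss, which also holds any difference between lines, differed between cells without and with Eed for Bmp4 and Id1. The called interactions were -1.93 in log2 for Bmp4 and -1.76 for Id1. Either value is the change on Ring1B loss in Eed deficient cells minus that in wild type cells. For Bmp4 the change was 0.00 in Eed deficient cells (95% interval -0.60 to 0.61) and 1.93 in wild type cells. For Id1 it was -0.22 in Eed deficient cells (95% interval -0.75 to 0.30) and 1.53 in wild type cells. The Bmp4 call ended on dropping any of 7 arrays (limma adjusted p 0.0518 to 0.0699). The Id1 call ended on dropping any of 3 (0.0559 to 0.0659). Of 17 tested extraembryonic endoderm markers, 9 were also called negative, and the part of endoderm cells was not tested.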

How the results depend on the processing

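Bmp2 and Bmp4 were called higher than wild type in all 3 mutants under every alternative run, and so was Bmp6 except in Ring1B deficient cells with replicate 2 of every genotype left out. Of 1600 recomputed log2 changes of the 10 genes, 1456 kept direction and side of the threshold, 79 lost the call, 14 gained it and 51 changed sign, of which 0 had been called. Of 1035 for pathway genes, 966, 62, 6 and 1 did so. The arrays give no counts, dim signals limit Bmp2, Bmp5 and Bmp6 in wild type and Bmp5 in the single mutants, and the cause of the shifts below was not tested.

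Scaling mattered for double deficient cells. Over all genes their median log2 change from wild type was 0.10 as deposited, 0.0003 after quantile normalization and -0.15 with arrays centred on the median. From Ring1B deficient cells it was 0.11, 0.013 and -0.14. The share of calls that were higher was 63.2%, 55% and 35% for double deficient against wild type, 56.6%, 44.2% and 21.7% for double against Eed, and 68.1%, 57.7% and 30.2% for double against Ring1B deficient cells. It was 70.3%, 67% and 59.1% for Eed deficient against wild type, 75.2%, 70.6% and 65.1% for Eed against Ring1B deficient, and 37.2%, 30.1% and 18.2% for the interaction. Centred arrays gave 4 of the 10 genes higher in double deficient cells, 1 against Ring1B deficient cells, and 0 lower in Eed against Ring1B deficient cells, with 411 calls over all genes between double and Eed deficient and 393 between Eed and Ring1B deficient cells. Double minus Eed deficient was then -0.17 for Bmp4 and -0.13 for Id2, and double minus Ring1B deficient -0.069 for Id2. Quantile normalization put Bmp4 at -0.011 between double and Eed deficient cells.

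Tests on every kept probe set gave 7172 calls for double deficient and 3238 for Eed deficient against wild type, and 4109 for double against Ring1B deficient. Over genes these were 4311, 2146 and 2617. Fits of only the 2 genotypes compared gave 562 calls in Ring1B deficient and 1297 in Eed deficient cells, 231 between Eed and Ring1B deficient cells, 3 of the 10 genes higher in Eed deficient cells, and 0 lower against Ring1B deficient cells. That last count was also 0 with no filter and with no intensity trend. With the mean of probe sets, Smad7 was 0.11 in Ring1B deficient cells and -0.11 in the interaction, Bmp7 0.50 in double deficient cells, and Id2 -0.026 between double and Eed deficient cells. Adding 20 put Bmp4 at -0.0011 between double and Eed deficient cells and the Id3 interaction at 0.041.

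Whether the numbers pair the cultures is not known. They gave a replicate block: 9 of 12 arrays correlated best with their own number, a hint from the data, with -0.05 to 0.18 for number 3. With the replicate block the calls over all genes were 2224 in Ring1B deficient and 3788 in Eed deficient cells, 1303 between double and Eed, 4373 between double and Ring1B and 1706 between Eed and Ring1B deficient cells, and 1260 in the interaction. Of the 10 genes, 1 was then lower in double than in Eed deficient cells, 2 lower in double and 3 higher in Eed than in Ring1B deficient cells, and 4 lower in the interaction. Bmp7 was called in Eed deficient against wild type (0.71, adjusted p = 0.0217), in double against Eed (-0.77, 0.0346) and Ring1B deficient cells (-0.63, 0.0352) and in the interaction (-1.34, 0.0125). These Bmp7 calls are of its tested probe set. Without a block, the second gave 0.05 for double against Eed, 0.42 for double against Ring1B and -0.52 in the interaction. The third gave -0.51, -0.42 and -1.51 in that order, and neither was called.

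With replicate 2 of every genotype left out, a choice made after seeing the data, all genes gave 113 calls between double and Eed, 365 between Eed and Ring1B deficient cells and 151 in the interaction, where 1 of the 10 genes was called. Signs turned for Bmp5 (-0.057) and Smad7 (0.21) in Ring1B, Id2 (-0.0016) in Eed and Bmp7 (0.020) in double deficient cells, for Bmp4 (-0.14) and Smad7 (-0.033) between double and Eed and Id2 (-0.12) between Eed and Ring1B deficient cells, and in the interaction for Id2 (0.35), Id3 (0.11) and Smad7 (-0.25).

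Leaving out 1 array at a time gave 620 to 1053 calls over all genes in Ring1B deficient and 1351 to 2249 in Eed deficient cells, 45 to 311 between double and Eed, 1324 to 2797 between double and Ring1B and 186 to 689 between Eed and Ring1B deficient cells, and 92 to 277 in the interaction. Of the 10 genes it called 3 to 5 higher in Eed deficient cells, 1 to 3 higher in double against Ring1B deficient cells, 0 to 1 higher and 0 to 1 lower in Eed against Ring1B deficient cells, and 0 to 2 in the interaction. Uncalled changes that turned ran, against wild type, from -0.023 to 1.01 for Id3, -0.49 to 0.035 for Smad7 and -0.35 to 0.089 for Tcf4 in Ring1B deficient cells and -0.33 to 0.13 for Bmp7 in double deficient cells. Between double and Eed deficient cells they ran from -0.23 to 0.14 for Bmp4, -0.46 to 0.014 for Id1, -0.35 to 0.65 for Id2, -0.18 to 0.046 for Smad6 and -0.016 to 0.62 for Smad7. Between double and Ring1B deficient cells the ranges were -0.14 to 0.53 for Id2 and -0.18 to 0.051 for Smad6. Between Eed and Ring1B deficient cells the ranges were -0.041 to 0.30 for Bmp6, -0.15 to 0.50 for Bmp7, -0.46 to 0.53 for Id2 and -0.14 to 0.11 for Smad6. In the interaction they were -0.85 to 0.15 for Id2 and -0.54 to 0.49 for Id3.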
